A study of Rattus norvegicus with 15 samples.

Results

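Cholesterol is built in the mevalonate pathway, and 8 genes of this pathway and its control circuit were followed across 15 sequencing libraries of rat islet cells. The genes were picked by symbol: Hmgcs1, Idi1, Fdft1, Sqle, Lss, Dhcr7, Insig1 and Aacs, 8 of the 17055 genes in the count tables. The cells came from pancreatic islets of Sprague-Dawley rats aged 10 days, were dispersed, and received either a control miRNA mimic or a mimic of miR-17-5p. Each kind of cell was read out in 2 ways, as poly(A) mRNA libraries and as RISC libraries, which hold RNA recovered with an antibody against Ago2. Ago2 is the Argonaute protein that carries a microRNA to its target transcripts inside the RNA-induced silencing complex (RISC). The mRNA readout covers 3 libraries of control cells and 5 of miR-17-5p cells, and the RISC readout 3 and 4. All 4 groups share strain, age and dispersal, and no gene was deleted in any of them. The label islets covers a mixture of cell types, all exposed to the mimic, and the level of the mature microRNA was not analysed here.

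Cells make cholesterol from acetyl-CoA. HMG-CoA synthase acts early on the way to mevalonate, later enzymes convert mevalonate to isoprene units and squalene, and squalene is oxidised, closed into lanosterol and trimmed to cholesterol. The transcription factor SREBP-2 (gene Srebf2) switches on most of these genes when sterols are scarce. When sterols are plentiful, Insig proteins hold the complex of Scap and SREBP-2 in the endoplasmic reticulum, and Insig1 is itself a target of SREBP. In islets, these pathways matter for the membranes and secretory granules of beta cells, and excess cholesterol is known to impair insulin release.

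The microRNA supplied was rat miR-17-5p, encoded at chr15:98587861-98587883 (plus strand, RefSeq, build GRCr8). It is shown with the other rat microRNAs of the RefSeq table that carry its seed, since a microRNA finds its targets mainly through the seed. Capitals mark the seed, bases 2 to 8, which all 5 share.

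rno-miR-17-5p: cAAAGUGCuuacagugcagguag
rno-miR-20a-5p: uAAAGUGCuuauagugcagguag
rno-miR-20b-5p: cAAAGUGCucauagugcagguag
rno-miR-93-5p: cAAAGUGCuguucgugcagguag
rno-miR-106b-5p: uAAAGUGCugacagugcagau

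Whether the transcripts of the 8 genes carry sites for this seed was not examined here. At the DNA level, RefSeq promoter windows (250 bases before to 50 after the start of the gene, GRCr8) were at hand for 6 of the 8 genes, all but Sqle and Fdft1. They were searched on both strands for 4 short motifs, none of which overlapped another. The CCAAT box, bound by NF-Y, was found in the windows of Hmgcs1, Idi1, Insig1 and Lss, against 37.5% of 33469 windows. A GC box, GGGCGG, bound by Sp1, was found in Hmgcs1, Insig1, Lss and Dhcr7, against 33.1%. The E-box CACGTG was found in Insig1, against 6.42%. The sterol regulatory element, searched as TCACNCCAC, was found in none of the 6 windows and in 1.12% of all windows. Only exact matches to this pattern within the windows were looked for, so the search does not show that the element is absent. The stretches from 215 to 116 bases before the start of Hmgcs1 (chr2:53382089-53382188, plus strand) and Insig1 (chr4:8057885-8057984, minus strand) hold both kinds of box close together. They are shown because both genes are textbook SREBP targets. Capitals mark the CCAAT boxes, here read as ATTGG, and the GC boxes, read as GGGCGG or CCGCCC.

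Hmgcs1 promoter: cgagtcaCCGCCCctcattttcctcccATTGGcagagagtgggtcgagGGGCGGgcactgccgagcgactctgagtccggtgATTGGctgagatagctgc
Insig1 promoter: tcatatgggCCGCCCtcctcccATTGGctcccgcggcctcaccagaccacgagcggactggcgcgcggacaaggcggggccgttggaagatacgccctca

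The mRNA libraries held 3379456 to 21056240 counts and the RISC libraries 4185123 to 13420403. Insulin transcripts (Ins1 and Ins2) made up 26.2% to 41.8% of counts in mRNA and 0.947% to 1.97% in RISC, so the islet label holds in the mRNA libraries. Control RISC libraries were the narrowest: with every library thinned to 3379456 counts they detected 5480 to 7036 genes, against 8880 to 10601 in miR-17-5p RISC and 11044 to 12409 in mRNA. The biological coefficient of variation was 0.305 in mRNA and 1.23 in RISC. Markers of stellate cells and fibroblasts moved with the mimic: their summed level was 9970 to 17254 CPM (counts scaled to a common library size) in control mRNA and 18436 to 41026 in miR-17-5p mRNA, and 4901 to 11130 against 26941 to 30079 CPM in RISC. Of 13 markers tested, 8 rose in mRNA and 5 in RISC. In mRNA, 12 fold changes were above 0 and that of Postn was below (-0.50 on the log2 scale, not called). Col1a2 was at 0 in all libraries, while Col1a1 was at 4394 to 18650 CPM in mRNA. Whether the 0 reflects the counting or the cells was not tested. Beta cell markers summed to 364981 to 441430 CPM in control mRNA and 257528 to 477387 in miR-17-5p mRNA, with 9 of 9 log2 fold changes below 0 and 0 called by edgeR, and in RISC 7 of 9 were below 0 with 0 called. In mRNA, 2 of 8 markers of other endocrine cells (Ghrl and Pyy) fell, as did 2 of 8 endothelial markers (Cdh5 and Kdr). So did 1 of 5 duct markers (Epcam). In these lists 1, 2 and 2 markers had fold changes above 0, with 0 called higher. In RISC, 4 of 7 endothelial markers were above 0, with 0 called. Acinar markers summed to 10.9 to 33.5 CPM in control mRNA and 15.7 to 122 in miR-17-5p mRNA. In RISC their sums were 33.2 to 57.6 against 5.93 to 12.8 CPM, and no acinar marker was called. Macrophage markers summed to 44.9 to 155 CPM in control mRNA and 72.9 to 241 in miR-17-5p mRNA, and in RISC to 0.188 to 73.9 against 265 to 377, with Cd74, Lyz2 and Cd14 at 0 in control RISC. The part of these shifts in the results on the 8 genes was not tested. Titles and descriptions, which speak of biological replicates, number the libraries differently. The p-values therefore reflect the spread among libraries, part of which may be technical.

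In the mRNA libraries, 6 of the 8 transcripts had a fold change below 0 after miR-17-5p, with the widest gap for Aacs. Summed over the 8, the level was 517 to 567 CPM in control and 391 to 499 CPM with miR-17-5p. Aacs weighs most in this sum, with a mean of 237 of 541 CPM in control. None of the 8 passed the test (edgeR's quasi-likelihood test, Benjamini-Hochberg adjusted p under 0.05 over 11077 genes), where 3.87% of all genes did. 1 of the 8 had an unadjusted p under 0.05, where 19.0% of all genes did, and 0 were called by DESeq2 or limma-voom. Fold changes are on the log2 scale, miR-17-5p over control, with the standard error (SE). Their median was -0.12 over the 8 genes and 0.01 over all genes tested. In such bulk libraries, fewer cells of a type and less RNA per cell cannot be told apart.

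**Figure D1:**
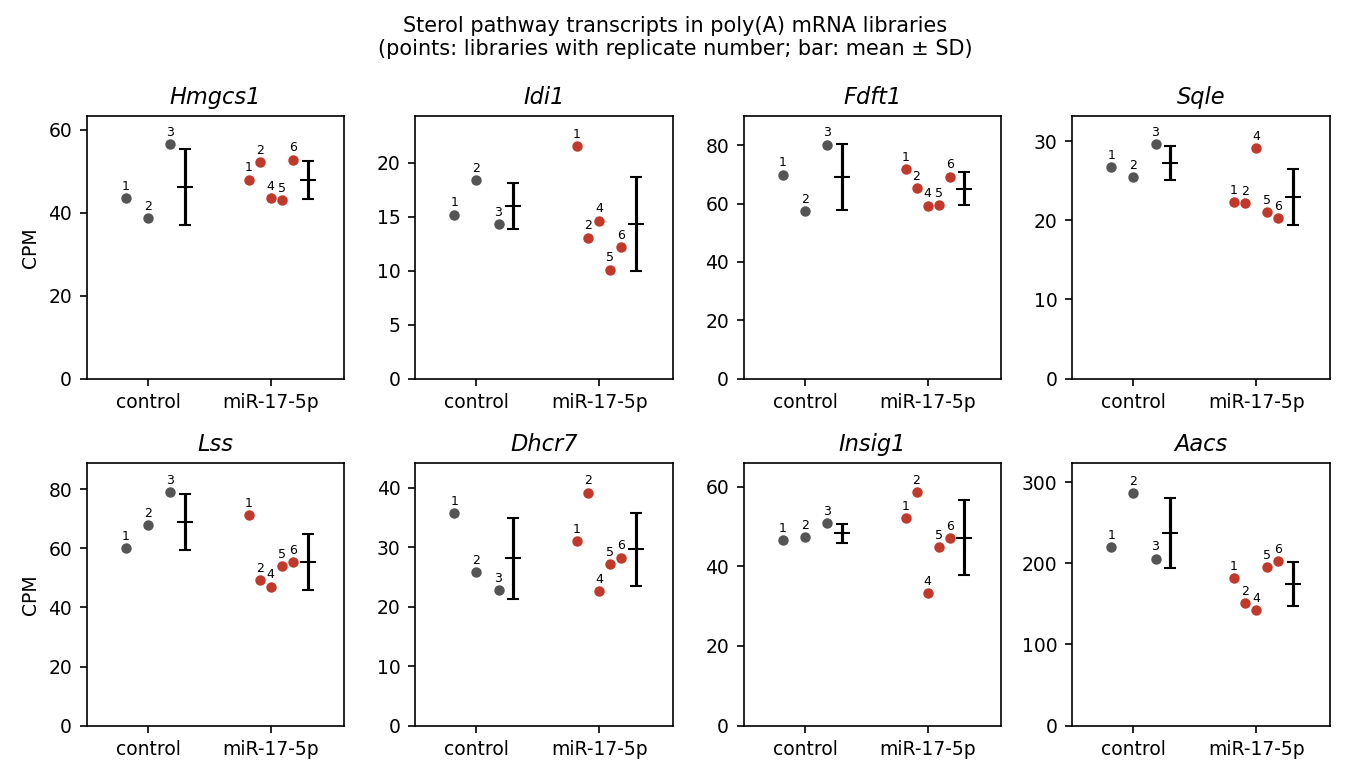
Level of the 8 transcripts in each poly(A) mRNA library, in CPM on TMM-scaled library sizes, for 3 control and 5 miR-17-5p libraries. Points are libraries with their replicate number and bars give mean ± SD. Aacs is the gene whose groups do not overlap, with control libraries at 206 to 287 CPM and miR-17-5p libraries at 142 to 202.

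Aacs, the cytosolic acetoacetyl-CoA synthetase that feeds ketone bodies into lipid synthesis, had the largest mRNA fold change of the 8. By edgeR's p it ranked 987 among the 11077 genes tested. Its level was 220, 287 and 206 CPM in control mRNA libraries 1, 2 and 3, and 181, 151, 142, 195 and 202 CPM in miR-17-5p libraries 1, 2, 4, 5 and 6. Every miR-17-5p library lay below every control library, though libraries 6 and 3 nearly touch. 1 of the 8 genes thus showed groups without overlap, lower with miR-17-5p, as did 6.68% of all genes, and 0 showed it in the higher direction, as did 8.51%. The means were 237 ± 43.1 (SD, n = 3) and 175 ± 26.7 CPM (SD, n = 5). The log2 fold change was -0.44 ± 0.15 (SE), with a 95% confidence interval of -0.77 to -0.12 and an adjusted p of 0.130 by edgeR, so the difference did not pass.

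The enzymes of the early pathway overlapped between groups. Hmgcs1, HMG-CoA synthase, was at 43.5, 38.6 and 56.5 CPM in control and 47.9, 52.2, 43.5, 43.0 and 52.8 CPM in miR-17-5p mRNA libraries. All 5 miR-17-5p values lay within the control range, and the log2 fold change was 0.06 ± 0.16 (SE). Idi1, the isomerase that makes the reactive isoprene unit, was the gene with the fewest counts in mRNA, down to 46 in control library 3. It stood at 15.2, 18.4 and 14.4 CPM in control and at 21.5, 13.1, 14.7, 10.1 and 12.2 CPM in miR-17-5p libraries, with the highest value in miR-17-5p library 1. Fdft1, squalene synthase, was at 69.9, 57.4 and 80.2 CPM in control and at 71.7, 65.3, 59.2, 59.5 and 69.2 CPM with miR-17-5p, again within the control range.

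The later enzymes and Insig1 overlapped as well. Sqle, squalene epoxidase, was at 26.8, 25.5 and 29.6 CPM in control and at 22.3, 22.2, 29.2, 21.1 and 20.3 CPM in miR-17-5p mRNA libraries. Here 4 of 5 miR-17-5p libraries lay below all controls, and library 4 lay among them. Lss, which closes squalene epoxide into lanosterol, was at 59.9, 67.7 and 78.9 CPM in control and at 71.1, 49.1, 47.0, 54.0 and 55.2 CPM with miR-17-5p, where library 1 alone reached the control range. The log2 fold changes were -0.24 ± 0.18 (SE, adjusted p 0.527 by edgeR) for Sqle and -0.31 ± 0.16 (SE, adjusted p 0.336 by edgeR) for Lss. Dhcr7, which reduces 7-dehydrocholesterol to cholesterol, was at 35.8, 25.8 and 22.8 CPM against 31.1, 39.2, 22.6, 27.1 and 28.2 CPM, and the ranges overlap. Insig1, the sterol-sensing anchor of the SREBP complex, was at 46.6, 47.3 and 50.9 CPM in control. Its miR-17-5p values of 52.0, 58.6, 33.2, 44.8 and 47.1 CPM lay on both sides of the controls, and its log2 fold change was -0.03 ± 0.18 (SE).

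Other genes of sterol and lipid metabolism did not pass in mRNA either. Of 58 tested in 5 lists, 0 were called by edgeR, 2 by DESeq2 and 3 by limma-voom. By edgeR, 11 of the 58 had an unadjusted p under 0.05, beside 19.0% of all genes. The lists were 15 further enzymes of the pathway, 9 genes of SREBP sensing, 16 of sterol uptake and transport, 13 of fatty acid synthesis and 5 of ketone metabolism, with 7, 2, 6, 3 and 3 fold changes above 0. Their median log2 fold changes were -0.016, -0.27, -0.047, -0.16 and 0.040 in that order, beside 0.01 over all genes. Srebf2 was at 304 ± 16.5 and 245 ± 31.4 CPM (SD), a log2 fold change of -0.31 ± 0.13 (SE, adjusted p 0.207 by edgeR). For Acly, which makes cytosolic acetyl-CoA, the log2 fold change was -0.50 ± 0.16 (SE, adjusted p 0.118 by edgeR). Neither difference passed the threshold.

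The 8 genes were also compared with each other over the 8 mRNA libraries. Pearson's r of log2 CPM was above 0 in 20 of 28 pairs, from -0.47 for Sqle with Dhcr7 to 0.79 for Hmgcs1 with Fdft1, with a median of 0.15, beside 0.0013 over pairs of all genes with at least 10 CPM. These libraries share the mimic contrast and differ in depth, so r is given as a description. The genes outside the 8 whose log2 CPM was most like their mean z-score over the 8 libraries were Rev3l (r = 0.97), Acpl2 (0.95), Zc3h10 (0.95), Mrps33 (0.95) and Nploc4 (0.95), out of 7385 genes compared. Whether the highest of so many values over 8 libraries would reach such r by chance was not tested.

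In the RISC libraries the level bound to Ago2 differed between groups for 3 of the 8 genes without overlap, all lower with miR-17-5p: Idi1, Dhcr7 and Insig1. Such non-overlap towards lower values was found for 3.19% of 9443 genes, and towards higher values for 17.8%. None of the 8 passed edgeR's test, where 0.371% of all genes did. 1 of the 8 had an unadjusted p under 0.05, where 20.1% of all genes did, and DESeq2 called 2 of them and limma-voom 0. The median log2 fold change was -0.03 over the 8 genes and 0.27 over all genes tested.

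**Figure D2:**
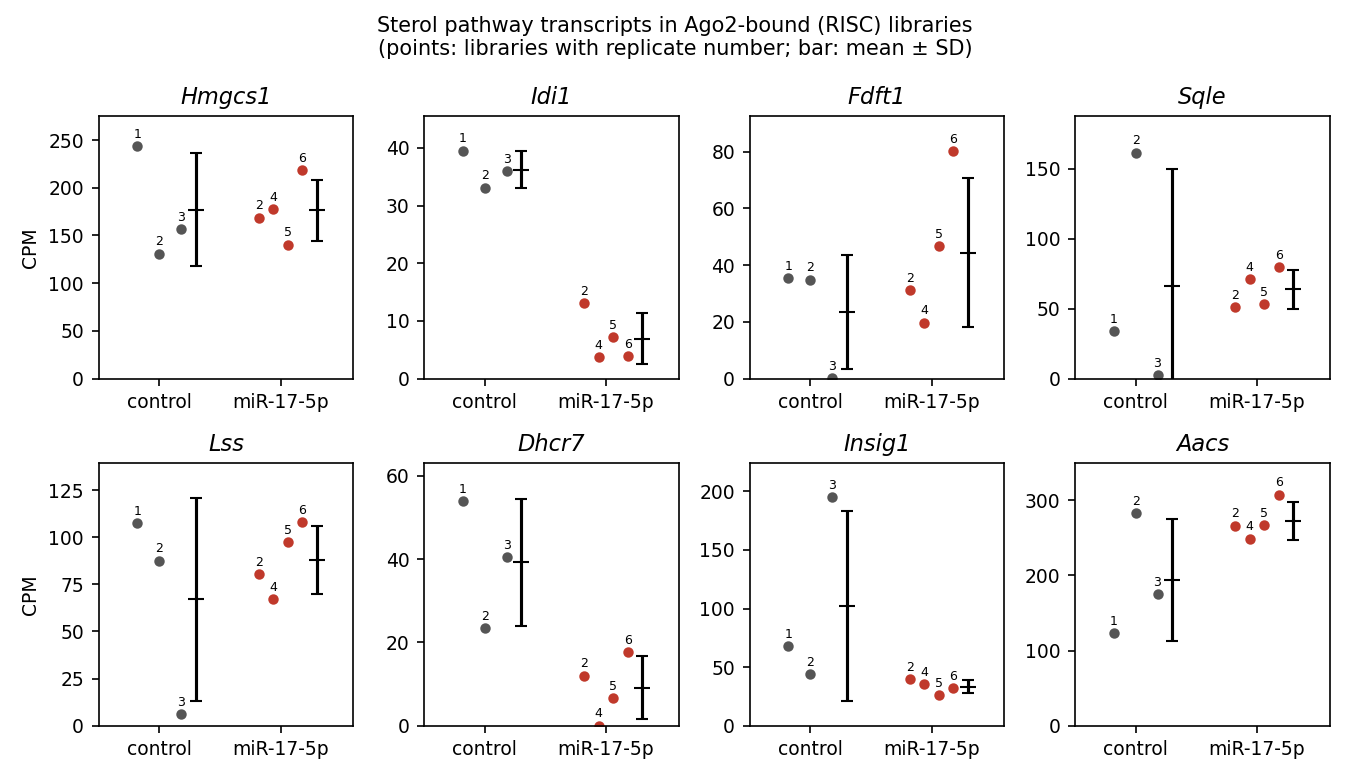
Level of the 8 transcripts in each RISC library, in CPM on TMM-scaled library sizes, for 3 control and 4 miR-17-5p libraries. Points are libraries with their replicate number and bars give mean ± SD, with the bar of control Sqle ending at the axis. Idi1, Dhcr7 and Insig1 separate by group, and control library 3 is lowest for Fdft1, Sqle and Lss and highest for Insig1.

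Idi1 showed the clearest separation. It was at 39.5, 33.1 and 35.9 CPM in control RISC libraries 1, 2 and 3 and at 13.0, 3.66, 7.18 and 3.83 CPM in miR-17-5p RISC libraries 2, 4, 5 and 6. The controls lay close together and each was above 2 times the highest miR-17-5p value. The means were 36.2 ± 3.20 (SD, n = 3) and 6.92 ± 4.38 CPM (SD, n = 4), and the lowest count was 23. The log2 fold change of -2.38 ± 1.21 (SE, 95% confidence interval -5.10 to 0.33) did not pass in edgeR (adjusted p 0.351). DESeq2 called it (adjusted p 0.0083), and over all alternatives the adjusted p ran from 0.0083 to 0.785.

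Insig1 was at 67.9, 44.3 and 195 CPM in control RISC libraries and at 39.5, 35.5, 25.9 and 32.0 CPM in miR-17-5p RISC libraries. All 4 miR-17-5p values were below the controls, narrowly for library 2 against control library 2, and control library 3 stood far above the rest. The means were 102 ± 81.0 (SD, n = 3) and 33.2 ± 5.74 CPM (SD, n = 4). The log2 fold change was -1.62 ± 0.59 (SE, 95% confidence interval -2.97 to -0.28, adjusted p 0.138 by edgeR). Without control library 3 it was -0.79 (adjusted p 0.406 by edgeR), and without control library 2 it was -1.99 (adjusted p 0.0486). Over all alternatives the adjusted p ran from 0.0456 to 0.426.

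Dhcr7 was at 53.9, 23.5 and 40.4 CPM in control RISC libraries and at 12.0, 0, 6.62 and 17.7 CPM with miR-17-5p. The groups do not overlap, and miR-17-5p library 4 held 0 counts, where 3 counts would have been 0.314 CPM. The means of 39.3 ± 15.2 (SD, n = 3) and 9.07 ± 7.55 CPM (SD, n = 4) gave a log2 fold change of -2.11 ± 1.63 (SE, adjusted p 0.703 by edgeR).

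The other 5 genes overlapped in RISC. Hmgcs1 was at 244, 131 and 157 CPM in control and at 169, 178, 140 and 219 CPM with miR-17-5p, and the log2 fold change of -0.01 ± 0.29 (SE) had a 95% confidence interval of -0.67 to 0.66. Aacs was at 123, 283 and 176 CPM in control and at 266, 249, 267 and 308 CPM with miR-17-5p, so that control library 2 alone reached the miR-17-5p range. Its log2 fold change was 0.49 ± 0.30 (SE, adjusted p 0.505 by edgeR).

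Control RISC library 3, which also detected the fewest genes, was low for 3 enzymes in the middle of the pathway. Sqle was at 33.8, 162 and 2.45 CPM in control against 51.0, 71.3, 53.3 and 79.7 CPM with miR-17-5p. Fdft1 was at 35.4, 34.9 and 0.188 CPM, the last from 1 count, against 31.1, 19.7, 46.7 and 80.0 CPM. Lss was at 107, 87.6 and 6.02 CPM against 80.2, 67.0, 97.3 and 108 CPM. In all 3 the miR-17-5p libraries lay within a smaller range than the controls on a fold scale. For Fdft1 and Lss this rested on control library 3 alone. Without it, their controls lay closer together than their miR-17-5p libraries. Fdft1 and Lss had the highest correlation of any pair over the 7 RISC libraries, with r = 0.98, and r = 0.83 without that library. For Sqle with Fdft1, r was 0.88 with that library and 0.055 without it, and for Sqle with Lss 0.89 and -0.24. Of all 28 pairs in RISC, 13 had r above 0, with a median of -0.081, beside 0.063 over pairs of all genes with at least 10 CPM. The confidence intervals of their fold changes spanned 0 widely, from -2.31 to 2.22 for Sqle, from -2.11 to 3.93 for Fdft1 and from -1.35 to 2.14 for Lss.

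**Figure D3:**
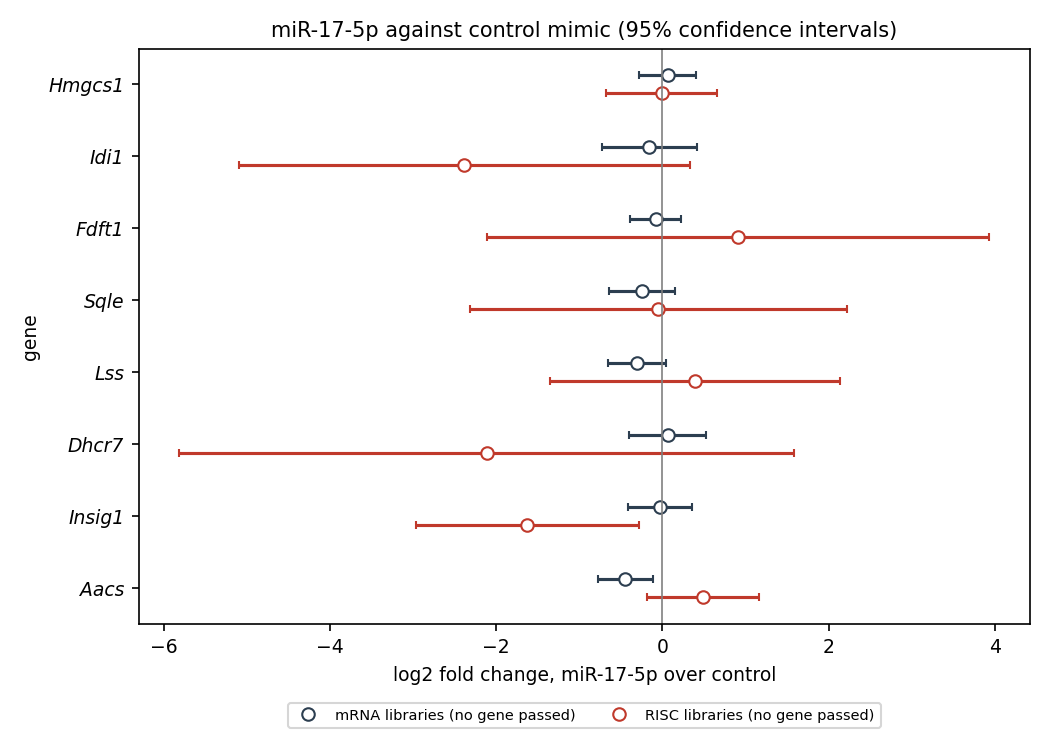
Log2 fold change of miR-17-5p over control for each gene in mRNA and in RISC libraries, with 95% confidence intervals and open points for genes that did not pass at an adjusted p under 0.05. The RISC intervals are wider for every gene, and the interval lies below 0 for Aacs in mRNA and for Insig1 in RISC.

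Of 52 genes tested in the 5 further lists, 0 were called in RISC by edgeR, 4 by DESeq2 and 0 by limma-voom. By edgeR, 5 of the 52 had an unadjusted p under 0.05, beside 20.1% of all genes. Among those 5 were Erlin2, Nsdhl and Bdh1. In the same order of lists, the medians were -0.072, -0.30, 0.10, 0.075 and -0.011, beside 0.27 over all genes. Nsdhl, a demethylating enzyme of the late pathway, had 0 counts in all control RISC libraries. Its mean of 3.59 CPM in miR-17-5p RISC was 9.43-fold above a floor of 3 counts per control library. That bound covers counting error only, not the spread among libraries. Nsdhl entered this test only through its miR-17-5p libraries, so it could only come out higher. The lowest miR-17-5p library was at 0.732 CPM, from 7 counts, and the difference did not pass (adjusted p 0.0757 by edgeR).

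The miR-17-5p effect in RISC was then compared with that in mRNA within 1 model of all 15 libraries. This difference asks whether the Ago2-bound share of a transcript moved relative to its level. None of the 8 genes passed, where 13.4% of 11418 genes did. 3 of the 8 had an unadjusted p under 0.05, where 25.3% of all genes did, and DESeq2 called 2 and limma-voom 0. Aacs, with a lower mRNA value and a higher RISC value, had a difference of 0.92 ± 0.33 on the log2 scale (SE, 95% confidence interval 0.22 to 1.63, adjusted p 0.0798 by edgeR). With replicate 2 of the control left out in both library types it was 1.35 (adjusted p 0.0029), and over all alternatives the adjusted p ran from 0.0029 to 0.426. For Insig1 the difference was -1.61 ± 0.59 (SE, adjusted p 0.0908 by edgeR) and -0.62 without control replicate 3, with adjusted p values from 0.0214 to 0.429 over the alternatives. For Idi1 it was -2.24 ± 0.85 (SE, adjusted p 0.101 by edgeR), with adjusted p values from 5.5e-04 to 0.448. The other 5 genes had differences from -2.21 ± 1.39 (SE) for Dhcr7 to 0.97 ± 1.17 (SE) for Fdft1.

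In the further lists, 4 of 58 genes passed in this difference, beside 13.4% of all genes, among them Fdps, Nsdhl and Bdh1. All 4 went towards RISC, as did 1488 of the 1533 genes called. The list medians were 0.51, -0.033, 0.24, 0.58 and 0.080, beside 0.40 over all genes. The difference was 1.26 ± 0.32 for Fdps, farnesyl diphosphate synthase (SE, adjusted p 0.0160 by edgeR). In Fdps the RISC level was 30.7 ± 2.84 CPM (SD, n = 3) in control and 65.8 ± 12.7 CPM (SD, n = 4) with miR-17-5p, beside 87.3 ± 6.90 and 76.8 ± 7.12 CPM (SD) in mRNA. Nsdhl and Bdh1, the mitochondrial ketone body dehydrogenase, had 0 and 1 counts in all control RISC libraries together. limma-voom called 0 of these genes.

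The last comparison set the RISC level of each gene against its mRNA level in the same kind of cell. Levels printed for this comparison are CPM scaled over all 15 libraries together, and the rest is measured relative to other transcripts of the library. Overlap was judged on CPM scaled over the libraries of each comparison alone. Hmgcs1 was the 1 gene of the 8 that passed in both kinds of cell, with a higher RISC level in each. In control cells 1 of the 8 genes passed, 1 higher and 0 lower in RISC, beside 28.2% of 10170 genes, 5.96% higher and 22.3% lower. The same 1 had an unadjusted p under 0.05, beside 34.6% of all genes. Groups without overlap were found for Hmgcs1 and Idi1, higher in RISC, and for Fdft1, lower in RISC, beside 12.0% and 39.9% of all genes. In miR-17-5p cells 3 of the 8 passed, 2 higher and 1 lower in RISC, beside 43.5% of 10871 genes, 21.7% higher and 21.8% lower. There 7 of the 8 had an unadjusted p under 0.05, beside 50.8% of all genes. Groups without overlap were found for Hmgcs1 and Sqle, higher, and for Insig1 and Dhcr7, lower, beside 19.1% and 25.7% of all genes. On the scale of all 15 libraries, Idi1 and Fdft1 were also lower in RISC without overlap. There Idi1 reached 10.9 CPM in RISC and began at 11.5 in mRNA, and Fdft1 reached 67.2 and began at 67.9. The 2 comparisons rest on separate libraries.

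**Figure D4:**
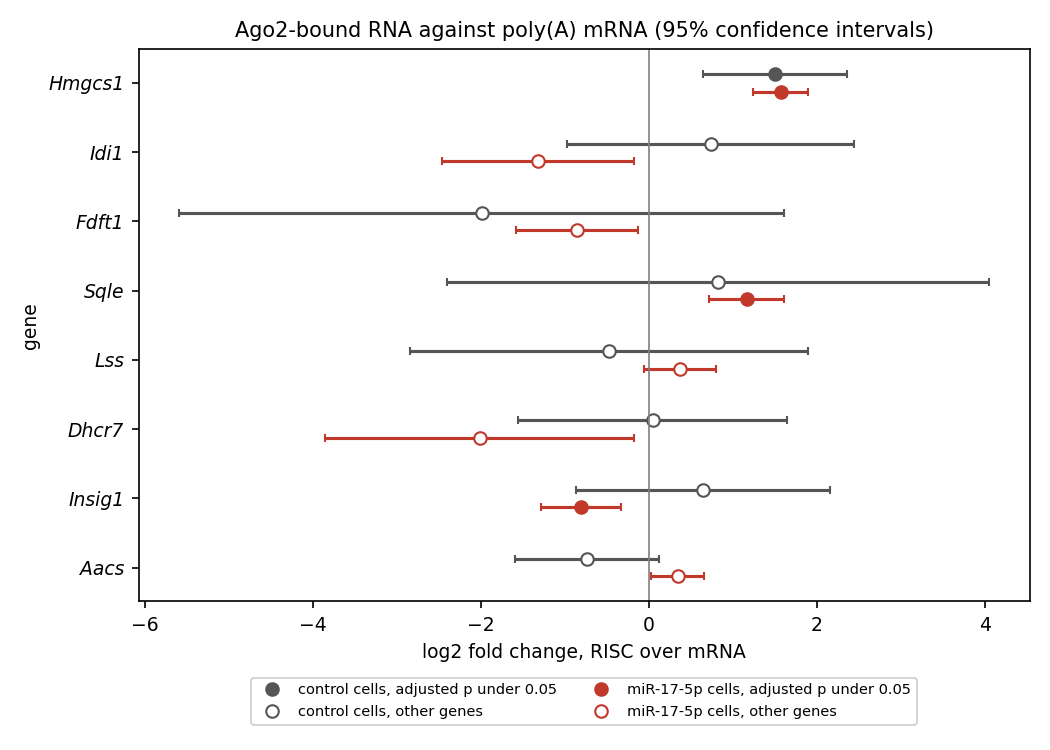
Log2 fold change of RISC over mRNA for each gene in control and in miR-17-5p cells, with 95% confidence intervals. Filled points passed at an adjusted p under 0.05. Hmgcs1 lies above 0 in both kinds of cell, Sqle above and Insig1 below 0 in miR-17-5p cells.

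For Hmgcs1 the order of levels was control RISC (151 ± 53.0 CPM, SD, n = 3), miR-17-5p RISC (148 ± 27.5, n = 4), miR-17-5p mRNA (55.4 ± 5.68, n = 5) and control mRNA (53.4 ± 9.95, n = 3). The RISC libraries, at 110 to 211 and 117 to 184 CPM, lay above the mRNA libraries, at 45.1 to 64.4 and 49.0 to 61.2 CPM. Neighbours within a library type did not differ beyond their spread. RISC exceeded mRNA by a log2 fold change of 1.51 ± 0.35 in control cells (SE, adjusted p 0.0222 by edgeR) and 1.57 ± 0.15 in miR-17-5p cells (SE, adjusted p 8.8e-06 by edgeR). In control cells the adjusted p was 0.0718 to 0.134 with any 1 replicate number left out, so that call needs all 3.

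Sqle in miR-17-5p cells was at 42.8 to 66.9 CPM in RISC and at 23.5 to 33.6 CPM in mRNA, without overlap. The log2 fold change was 1.16 ± 0.20 (SE, adjusted p 7.3e-04 by edgeR). In control cells it was 0.82 ± 1.30 (SE), and the RISC libraries ran from 2.07 to 136 CPM on both sides of the mRNA libraries. Insig1 went the other way in miR-17-5p cells: RISC was at 21.6 to 33.1 CPM and mRNA at 38.2 to 68.0 CPM, without overlap, a log2 fold change of -0.81 ± 0.22 (SE, adjusted p 0.0101 by edgeR). That call was lost without miR-17-5p replicate 5 (adjusted p 0.0550). In control cells the value for Insig1 was 0.64 ± 0.61 (SE), and it did not pass.

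The remaining 5 genes did not pass in either kind of cell. In miR-17-5p cells the log2 fold changes were -1.32 ± 0.52 for Idi1 (SE, adjusted p 0.0590 by edgeR), -0.86 ± 0.33 for Fdft1 (SE, adjusted p 0.0539 by edgeR) and -2.02 ± 0.84 for Dhcr7 (SE, adjusted p 0.0722 by edgeR). Of 12 alternatives, Fdft1 passed under 8, Idi1 under 4 and Dhcr7 under 3. With DESeq2's size factors the adjusted p by edgeR was 0.0322 for Fdft1, 0.0362 for Idi1 and 0.0581 for Dhcr7, and DESeq2's own test called all 3. Aacs was at 0.34 ± 0.15 and Lss at 0.37 ± 0.20 (SE). In control cells the values ran from -1.99 ± 1.45 (SE) for Fdft1, whose control RISC library 3 held 1 count, to 0.74 ± 0.69 (SE) for Idi1, whose RISC libraries at 27.8 to 34.2 CPM lay above its mRNA libraries at 16.4 to 21.5 CPM. DESeq2's size factors moved the median over all genes from -0.69 to -0.87 in control cells and from -0.15 to -0.26 in miR-17-5p cells. Dhcr7 in control cells moved with that shift and changed sign, from 0.044 to -0.15.

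Among the further lists, 11 of 56 genes passed in control cells, 5 higher in RISC (among them Soat1, Abca1, Vldlr and Scd) and 6 lower (Fdps, Pmvk, Tm7sf2, Nsdhl, Ebp and Bdh1), beside 28.2% of all genes, 5.96% higher and 22.3% lower. The list medians were -1.46, 0.38, -0.17, -0.12 and -0.89, beside -0.69 over all genes. Abca1, the cholesterol efflux pump, was higher by 2.23 ± 0.35 on the log2 scale (SE), and Scd, the fatty acid desaturase, by 0.93 ± 0.13 (SE). Of the enzymes lower in RISC, Tm7sf2, Nsdhl and Ebp had 0 counts in all control RISC libraries. Set against a floor of 3 counts per library, they were at least 28.1-fold, 20.2-fold and 69.4-fold lower than in mRNA. These bounds cover counting error only, not the spread among libraries. All 3 genes entered the test only through their mRNA libraries, so they could only come out lower. Pmvk and Bdh1, with 1 count each in control RISC, entered it in the same way. With replicate 1 left out, 0 of the 56 passed.

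In miR-17-5p cells 33 of 58 further genes passed, 22 higher and 11 lower in RISC, beside 43.5% of all genes, 21.7% higher and 21.8% lower. The list medians were -0.51, 0.68, 0.83, 0.48 and -0.81, beside -0.15 over all genes. Of 15 further pathway enzymes, 2 were higher, among them Lbr, and 5 lower, among them Mvk, Pmvk, Fdps and Ebp. Of 9 genes of SREBP sensing, 5 were higher (Srebf2, Insig2, Mbtps2, Erlin1 and Erlin2) and 1, Scap, was lower by 0.56 on the log2 scale. Insig2, the paralog of Insig1, was higher in RISC by 1.49 ± 0.49 (SE), opposite to Insig1. Of 16 genes of uptake and transport, 9 were higher and 3 lower, with Mylip, a ubiquitin ligase induced by sterols, at 1.99 ± 0.22 and Npc1, the lysosomal cholesterol exporter, at 1.78 ± 0.27 (SE). Npc2, Apoe and Scarb1 were the 3 lower ones. Of 13 genes of fatty acid synthesis, 5 were higher (Acaca, Scd, Me1, Acsl3 and Lpin1) and 2, Fads1 and Fads2, lower. Of 5 ketone genes, Oxct1 alone passed, at 0.84 ± 0.19 (SE).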

How the data were processed

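The deposited files hold counts per gene made by the authors, 1 table per library. Per the submitters' processing notes, TopHat2 2.0.10, Bowtie2 and HTSeq were used with build rn5. DESeq and edgeR are also named. Versions of the other tools: not given in the sources used here. Per the labels' protocols, sequencing was single-end without strand, so reads of genes that overlap, antisense ones included, are not separable, and oligo(dT) selection is stated for the mRNA libraries only. Of 17055 symbols, 14175 matched RefSeq. Alignments that were not unique (15.0% to 31.2%) or ambiguous (0.151% to 0.454%) stayed out of library sizes.

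Groups came from the sample titles. Tests ran in edgeR 4.0.16 under R 4.3.3: TMM factors, filterByExpr, robust quasi-likelihood fits, two-sided F-tests and Benjamini-Hochberg adjustment over all genes tested. All 8 genes passed the filter in every comparison. Each comparison used its own libraries, and the difference of effects all 15. SE is the fold change over the root of F, and intervals are 95%. CPM use TMM factors per library type. The 8 genes and the further lists were chosen with earlier results of these data known. Named further genes are those called, and the 2 with the highest mRNA level per list. Some further genes stay in the counts but are not reported here by name. Other examples were named after their values were seen. The floor is 3 counts per library, for counting error only. Alternatives were the size factors of DESeq2, those by upper quartile, all genes unfiltered, genes with a mean of 50 counts or more, limma-voom 3.58.1 with quality weights, DESeq2 1.42.0 by its Wald test, a replicate block and each replicate left out. No 2 libraries of a group were duplicates (chi-square per degree of freedom 6.78 to 323).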

Additional observations from a re-analysis of the deposited data

Results flagged for a closer look

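Sqle in the miR-17-5p mRNA libraries had 1 library far from the others: library 4, at 29.2 CPM, lay apart from the other 4, at 20.3 to 22.3 CPM, by 0.769 of the group's range. Of the 8 genes in their 4 groups, the 16 groups with at least 4 libraries were examined, and chance marks about 1 in 20 such groups.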

How the results depend on the processing

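Depth and the spread of the RISC libraries limit these results. Of 520 values of the 8 genes under alternatives, 457 kept direction and call, 23 were called anew, 6 lost a call and 34 changed sign; where a sign or call changed, the cause was not tested. In mRNA, all genes called were 429, and 887 with DESeq2, 1001 with limma-voom, 0 with a replicate block and 85 to 816 with 1 replicate left out, and further genes called were 0, 2, 3, 0 and 0 to 3. In RISC, all genes were 35, and 1305 with DESeq2, 20 with limma-voom and 0 to 1225 with 1 replicate left out. The 8 genes gave 2 calls with DESeq2 and 0 to 1 with 1 left out, and further genes 4 and 0 to 3. In the difference, all genes were 1533, and 0 with limma-voom, 30 with a replicate block and 1155 to 2452 with 1 left out. The 8 genes gave 1 call at a mean of 50 counts, 2 with DESeq2 and 0 to 2 with 1 left out, and further genes 0 with limma-voom, 0 with the replicate block and 3 to 10. For RISC against mRNA in control cells, all genes were 2870, and 1254 at a mean of 50 counts, 338 with the replicate block and 0 to 3114 with 1 left out. The 8 genes gave 0 calls with the replicate block and 0 to 0 with 1 left out. Further genes gave 7 at a mean of 50 counts, 18 with DESeq2, 17 with limma-voom, 2 with the block and 0 to 14. In miR-17-5p cells the 8 genes gave 5 calls with DESeq2 size factors, 5 with upper quartile factors, 6 with DESeq2, 5 with limma-voom and 2 to 4 with 1 left out. All genes ran from 3770 to 4780 and further genes from 25 to 29 with 1 left out.

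Signs changed as follows (log2 fold change). In mRNA: Dhcr7 -0.048 with limma-voom; with the replicate block, Insig1 0.23, Idi1 0.012 and Fdft1 0.11; with 1 replicate left out, Hmgcs1 ran from -0.050 to 0.22, Insig1 from -0.11 to 0.074, Fdft1 from -0.20 to 0.031 and Dhcr7 from -0.056 to 0.29. In RISC: Hmgcs1 0.021 at a mean of 50 counts and Sqle 0.84 with limma-voom; with 1 left out, Hmgcs1 -0.18 to 0.24, Sqle -0.64 to 1.82 and Lss -0.18 to 0.88. In the difference: Hmgcs1 0.094 at a mean of 50 counts; with 1 left out, Hmgcs1 -0.18 to 0.50 and Sqle -0.26 to 2.20. For RISC against mRNA in control cells: Dhcr7 -0.15 with DESeq2 size factors, -0.15 with DESeq2, -0.053 with limma-voom and -0.012 with the block, and Sqle -0.069 with limma-voom and -0.43 with the block; with 1 left out, Dhcr7 -0.12 to 0.21, Sqle -1.07 to 1.44, Insig1 -0.19 to 0.92 and Lss -1.10 to 0.16.

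Whether equal replicate numbers mark paired libraries could not be decided, given few libraries per group and the wide spread in RISC. Deviations of same-numbered mRNA and RISC libraries from their group means correlated at -0.015 to 0.049. An mRNA library correlated best with the RISC library of its own number in 3 of 7 cases. Under the block, Hmgcs1 in control cells (1.46, adjusted p 0.156 by edgeR) and Insig1 in miR-17-5p cells (-0.75, adjusted p 0.0524 by edgeR) lost their calls. In RISC alone, groups share 1 number and no block could be fitted.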
